A study of Mus musculus with 12 samples.

Results

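Chromatin accessibility was compared between 2 splenic B cell types of wild-type female C57BL/6J mice, marginal zone B cells (MZB) and B cells of the follicles (FoB), with 3 libraries for each. They were 6 of the 12 libraries of a study of the histone demethylase LSD1, and all genomic regions with at least 1 rppm (reads per peak, scaled to the library's total in peaks) in at least 3 of the 12 libraries were compared, 89782 of the 94161 deposited. Both cell types were gated as Thy1.1-, F4/80-, CD11b-, B220+, CD93- and GL7-. MZB were CD23-, CD21hi and CD1d+, and FoB were CD23+, CD21mid and CD1d-. The cells received no stimulation. Each library was made by ATAC-seq from 10000 cells, an assay in which the transposase Tn5 cuts open chromatin and inserts sequencing adapters. The other 6 libraries were MZB and FoB of LSD1 knockout mice, 3 of each, and are used here as a second set of both cell types. The sources used here give neither the mouse ages nor the cells in which LSD1 was deleted. Neither do they say that the 3 libraries of a group came from separate mice, so the p-values measure the spread between libraries, which may be technical.

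Marginal zone B cells lie at the border of the splenic white pulp, where they meet antigens from the blood and differentiate rapidly into antibody-secreting cells. Their development depends on signalling through the receptor Notch2, and their position depends on receptors for the lipid sphingosine 1-phosphate, on integrins and on complement receptors. Follicular B cells recirculate between blood and lymphoid follicles, guided by chemokine receptors such as CXCR5 and CCR7, and provide most germinal centre responses.

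The wild-type MZB libraries held 3215626 to 3761569 reads in the regions, and the FoB libraries 3652551 to 10375328, of which the second replicate was the deepest. A single read was worth 0.0964 to 0.311 rppm in these 6 libraries. Spearman correlations over regions were 0.937 to 0.941 within MZB, 0.93 to 0.965 within FoB and 0.835 to 0.875 between the cell types. The first principal component of the 12 libraries carried 53.4% of the variance, and it placed all MZB libraries below 0 and all FoB libraries above 0, whatever the genotype. Each of the 6 libraries exceeded both others of its cell type by at least 4-fold at 0 to 11 regions, of which at most 1 was called.

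For the start sites of 7 genes the upstream reference sequence is printed, which is the same for both cell types. These genes were chosen after their values were seen. Ackr3, S1pr3 and Il4 had start sites more accessible in MZB. Fcer2a, Klf2, Cr2 and Lef1 had start sites more accessible in FoB. The 250 bases upstream of each start are printed 5′ to 3′ on the gene's strand, as given by RefSeq for build GRCm38.p6, the reference of the mm10 regions. Capitals mark matches, on either strand, to 10 short motifs that are spelled out with the start sites below. The windows are chr1:90203730-90203979, chr13:51408368-51408617, chr8:72318812-72319061 and chr3:131112541-131112790 on the plus strand, and chr11:53617339-53617588, chr8:3694175-3694424 and chr1:195176720-195176969 on the minus strand.
Ackr3: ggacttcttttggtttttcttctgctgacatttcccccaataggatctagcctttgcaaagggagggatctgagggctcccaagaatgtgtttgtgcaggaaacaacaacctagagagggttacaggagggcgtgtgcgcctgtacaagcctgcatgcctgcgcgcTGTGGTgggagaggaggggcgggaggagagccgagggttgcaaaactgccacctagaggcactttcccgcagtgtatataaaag
S1pr3: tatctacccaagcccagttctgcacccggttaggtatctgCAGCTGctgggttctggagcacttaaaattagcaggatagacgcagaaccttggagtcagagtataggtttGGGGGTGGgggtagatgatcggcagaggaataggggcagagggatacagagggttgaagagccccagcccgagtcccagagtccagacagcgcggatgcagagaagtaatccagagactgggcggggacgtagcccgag
Il4: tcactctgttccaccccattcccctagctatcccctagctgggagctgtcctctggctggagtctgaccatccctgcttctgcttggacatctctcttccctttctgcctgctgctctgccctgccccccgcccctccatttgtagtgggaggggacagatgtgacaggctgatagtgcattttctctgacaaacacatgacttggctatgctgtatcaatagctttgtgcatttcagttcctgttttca
Fcer2a: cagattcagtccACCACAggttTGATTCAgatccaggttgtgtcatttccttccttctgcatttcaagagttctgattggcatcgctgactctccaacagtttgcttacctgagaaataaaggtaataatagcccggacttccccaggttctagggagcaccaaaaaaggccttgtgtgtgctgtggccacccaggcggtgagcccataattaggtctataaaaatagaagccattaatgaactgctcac
Klf2: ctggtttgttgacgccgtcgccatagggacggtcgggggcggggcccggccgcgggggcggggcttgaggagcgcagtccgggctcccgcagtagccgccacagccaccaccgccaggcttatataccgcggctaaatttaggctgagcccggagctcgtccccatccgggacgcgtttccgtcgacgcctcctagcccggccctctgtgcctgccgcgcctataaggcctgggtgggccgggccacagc
Cr2: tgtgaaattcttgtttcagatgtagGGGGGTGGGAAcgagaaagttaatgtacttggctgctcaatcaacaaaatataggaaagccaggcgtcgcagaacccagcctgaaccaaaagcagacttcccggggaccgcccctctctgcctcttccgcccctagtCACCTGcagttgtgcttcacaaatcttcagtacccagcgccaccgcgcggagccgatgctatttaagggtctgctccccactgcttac
Lef1: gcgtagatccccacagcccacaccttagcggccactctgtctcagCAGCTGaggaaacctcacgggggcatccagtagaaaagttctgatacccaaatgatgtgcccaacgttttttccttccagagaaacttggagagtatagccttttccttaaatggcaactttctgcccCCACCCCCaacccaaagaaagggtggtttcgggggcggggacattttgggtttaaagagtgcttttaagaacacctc
The windows of Il4 and Klf2 held none of the 10 motifs. That of Cr2 held 3 matches, an RBPJ match that overlaps a Krueppel-like match and an E box. A match describes letters and not a bound site.

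Accessibility differed between the cell types at 32026 regions. In limma at an adjusted p under 0.05, 21757 regions were higher in MZB (24.2% of those tested) and 10269 were lower (11.4%). The regions higher in MZB were mostly modest in FoB, with a median of 6.14 rppm in MZB and 2.08 rppm in FoB. The regions lower in MZB had medians of 19.8 rppm in MZB and 29.0 rppm in FoB. At a difference of at least 2-fold, 14474 regions (16.1%) were higher and 1410 (1.57%) were lower. Those at least 2-fold lower had medians of 1.96 rppm in MZB and 6.00 rppm in FoB. The 3 MZB and 3 FoB libraries did not overlap at 41940 regions (46.7%). Differences are given on the log2(rppm + 0.5) scale, which understates those of low regions. In bulk libraries, fewer cells with an open region and less opening per cell cannot be told apart.

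The balance of the 2 directions rested on the scaling. As deposited, all libraries have the same total, and the median difference of all regions was 0.18 on the log2 scale. Of the calls, 67.9% were higher in MZB. With edgeR and TMM scaling the median was 0.05 and 51.6% of the calls were higher, and with quantile normalisation these were -0.08 and 49.5%. DESeq2 gave 52.4%. The gene lists are therefore described beside the shares and the median of all regions. The libraries differed in breadth as well: 81405 to 84269 of the tested regions reached 1 rppm in the MZB libraries and 73326 to 75462 in the FoB libraries. Of the reads, the most accessible 10% of regions took 45.7% to 46.8% in the MZB libraries and 53.0% to 54.2% in the FoB libraries.

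**Figure D1:**
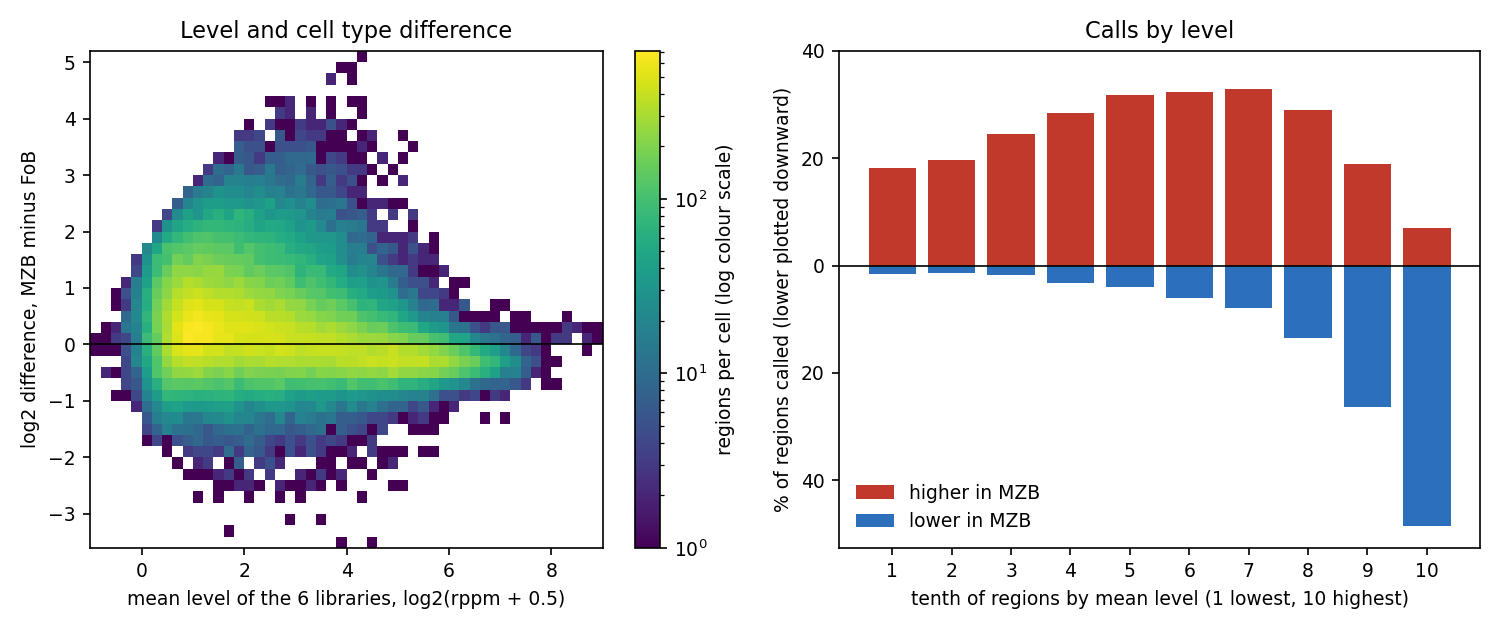
Left: the log2 difference (MZB minus FoB, wild-type) of the 89782 regions against their mean level in the 6 libraries, as the number of regions per cell of the grid. Right: the percent of regions called higher (red, upward) or lower (blue, downward) in MZB in each 10% of regions by mean level; 6.94% of the highest 10% were higher and 48.5% were lower.

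The balance of directions varied with the level and the place of a region, and its pattern over levels depended on the scaling. In the lowest 10% of regions by mean level 18.1% were higher and 1.66% lower in MZB, in those of 6.08 to 9.27 rppm 33.0% and 7.96%, and in the highest 10% 6.94% and 48.5%. Under TMM scaling the highest 10% had 3.85% higher and 72.8% lower. Under quantile normalisation the lowest 10% had 5.63% higher and 8.12% lower, and the highest 10% 14.2% and 18.1%. Of the 12282 regions within 1000 bp of a listed start site of a protein-coding gene, 1291 (10.5%) were higher and 3984 (32.4%) were lower, with a median difference of -0.19. Gene bodies showed the opposite balance, with 11354 of 37640 regions (30.2%) higher and 2643 (7.02%) lower and a median of 0.31. Between genes, 8665 of 36769 regions (23.6%) were higher and 2917 (7.93%) lower, but 5159 and 5386 regions under quantile normalisation. Start sites and gene bodies were also compared within regions of like level. At mean levels of 9.27 to 15.3 rppm, 14.2% of start-site regions and 33.0% of gene-body regions were higher in MZB, and under quantile normalisation 9.43% and 25.9%. In the highest 10%, 57.9% of start-site regions and 35.5% of gene-body regions were lower, but under quantile normalisation 19.3% and 17.3%. Over all levels, under quantile normalisation 22.6% of start-site regions were lower and 8.08% higher, and under TMM scaling 51.3% and 7.77%, so start sites were more often lower than higher under each of the 3 scalings.

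The sorting markers gave a mixed picture. Fcer2a, which encodes the gated CD23, the low-affinity IgE receptor, had 4 of 5 regions lower in MZB and none higher. Its start-site region (chr8:3693834-3694522) stood at 22.9, 24.2 and 32.3 rppm in the MZB libraries and 58.3, 62.8 and 69.2 rppm in the FoB libraries, and the groups did not overlap (log2 difference -1.26, SE 0.11, adjusted p = 4.00e-11). Cr2, which encodes the complement receptor CD21, had 5 of 20 regions lower in MZB and none higher, although the sorted MZB were CD21hi. Accessibility at its start site (chr1:195176312-195177062) was 48.9, 55.6 and 55.4 rppm in the MZB libraries and 80.5, 71.4 and 67.3 rppm in the FoB libraries, without overlap (log2 difference -0.45, SE 0.09, adjusted p = 1.80e-04). This Cr2 call was lost under quantile normalisation, where the log2 difference was -0.22. Cd1d1, which encodes the lipid-presenting molecule CD1d, had 7 of 15 regions higher and 1 lower, and Cd1d2 had no tested region. The leading Cd1d1 region (chr3:86959116-86959463), 36371 bp outside the gene, stood at 12.2, 11.7 and 12.1 rppm in the MZB libraries and 2.74, 5.01 and 4.06 rppm in the FoB libraries. All 3 MZB libraries lay above the FoB libraries there (log2 difference 1.53, SE 0.26, adjusted p = 1.19e-05).

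Of the markers gated as absent from both cell types, Cd93, a receptor of immature B cells, had 7 of 13 regions lower in MZB and none higher. Its leading region (chr2:148425655-148426452) stood at 22.4, 27.4 and 28.9 rppm in the MZB libraries and 49.5, 58.2 and 57.5 rppm in the FoB libraries (log2 difference -1.06, SE 0.11, adjusted p = 1.29e-09). Itgam, which encodes CD11b, had 6 of 12 regions higher in MZB, with a leading region of 2.88 against 0.364 rppm in MZB and FoB (log2 difference 1.97, adjusted p = 1.01e-04). Adgre1, which encodes F4/80, had 3 of 11 regions lower. Neither Thy1 region passed, and the lower p was at a region of 0.920 against 0.386 rppm (log2 difference 0.74, adjusted p = 0.191). Ptprc, which encodes B220, gated as present, had 5 of 52 regions higher and 2 lower. In all, 18 of the 130 regions of the sort marker genes were higher and 22 were lower. Their median difference of 0.05 lay 0.14 below that of all regions.

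Both cell types carried open regions at defining B lineage genes. The most accessible region overlapping Ms4a1, which encodes CD20, stood at 60.1 ± 4.33 rppm in MZB and 71.7 ± 3.45 rppm in FoB (SD, n = 3 here and below), and that of Cd79a, a signalling chain of the B cell receptor, at 24.2 ± 2.29 rppm in MZB and 32.4 ± 2.02 rppm in FoB. Overlapping Pax5, the factor that maintains B cell identity, the values were 42.4 ± 6.32 rppm in MZB and 43.1 ± 1.15 rppm in FoB.

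The 17 genes of the marginal zone programme had the largest share of higher regions among the 30 gene lists. The lists and their members were chosen with earlier results of these data known, so this rank is a description and not a test. Of their 365 regions, 187 (51.2%) were higher and 30 (8.22%) lower in MZB, and 143 were higher by at least 2-fold. The median difference was 0.65, which is 0.47 above that of all regions, and 0.49 and 0.51 above it under TMM scaling and quantile normalisation. For 11 genes every called region was higher, for 5 genes regions moved in both directions, and for Cr2 every called region was lower. Within 50000 bp of the genes 109 of 218 regions were higher and 21 lower.

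Cd9, a tetraspanin found on marginal zone and B-1 cells, had 18 of 19 regions higher. The region of smallest p (chr6:125460666-125461822), inside the gene and 33.5 kb downstream of its start, stood at 85.6, 75.5 and 72.5 rppm in the MZB libraries and 22.7, 19.8 and 16.5 rppm in the FoB libraries. All MZB libraries lay above all FoB libraries there (log2 difference 1.97, SE 0.12, adjusted p = 1.42e-15). A second region inside the gene (chr6:125483606-125483835) was near the floor in FoB, at 7.02, 6.65 and 5.60 rppm in the MZB libraries and 0.548, 0.386 and 0.477 rppm in the FoB libraries (log2 difference 2.83, adjusted p = 1.00e-08). The called Cd9 regions ran from -11.9 to 72.2 kb relative to its start, negative values lying upstream.

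Ackr3, an atypical receptor for the chemokine CXCL12, had 14 of 14 regions higher, with log2 differences of 1.47 to 2.96. The region 6188 bp beyond the gene (chr1:90221912-90222520) stood at 25.6, 17.8 and 19.3 rppm in the MZB libraries and 1.37, 2.70 and 2.87 rppm in the FoB libraries (log2 difference 2.96, SE 0.24, adjusted p = 2.71e-12). Its start-site region (chr1:90203722-90204330), whose upstream sequence is printed above, was at 22.4, 18.9 and 18.97 rppm in the MZB libraries and 3.83, 4.05 and 2.39 rppm in the FoB libraries. The MZB libraries were uniformly high and the FoB libraries low at both (log2 difference 2.42, SE 0.20, adjusted p = 5.21e-12 at the start site).

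Sphingosine 1-phosphate receptors draw marginal zone B cells away from the follicle. S1pr3, one of them, had 13 of 17 regions higher and none lower. Its leading region (chr13:51410016-51410430), in the gene, stood at 14.3, 9.84 and 12.4 rppm in the MZB libraries and 0.548, 0.964 and 0.477 rppm in the FoB libraries, far apart and without overlap (log2 difference 3.46, SE 0.30, adjusted p = 1.66e-11). At the start site (chr13:51408405-51409144) the values were 29.7, 29.8 and 22.4 rppm in the MZB libraries and 10.1, 10.4 and 10.03 rppm in the FoB libraries (log2 difference 1.37, adjusted p = 2.48e-09). S1pr1, a second receptor of this lipid, had 21 of 53 regions higher and 12 lower. Accessibility at a region 141727 bp from the gene (chr3:115568252-115568706) was 25.9, 21.3 and 24.3 rppm in the MZB libraries and 3.01, 2.51 and 2.39 rppm in the FoB libraries (log2 difference 2.96, SE 0.21, adjusted p = 1.01e-13). Another S1pr1 region (chr3:115692471-115692705), 17728 bp from the gene, lay in the other direction at 3.51, 3.19 and 1.55 rppm in the MZB libraries and 7.39, 6.46 and 6.68 rppm in the FoB libraries (log2 difference -1.23, adjusted p = 2.06e-04). The 2 S1pr1 regions thus separated the cell types in opposite directions.

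Zc3h12c, a gene of the CCCH zinc-finger RNA-binding family, had 29 of 32 regions higher and 28 of them by at least 2-fold. Its leading region (chr9:52341644-52342306) lay at -173.6 kb from the start, upstream, with 23.5, 12.8 and 21.1 rppm in the MZB libraries and 1.09, 1.16 and 0.239 rppm in the FoB libraries (log2 difference 3.93, SE 0.29, adjusted p = 3.55e-13). Among the other members, Cd36, a scavenger receptor, had 10 of 19 regions higher, Nebl 13 of 22, Plxnd1, a semaphorin receptor, 6 of 9, and Myof 9 of 17 with 1 lower. Marcks had 28 of 78 regions higher and 8 lower. Tnfrsf13b, which encodes the BAFF and APRIL receptor TACI, had 1 of 11 higher and 3 lower.

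**Figure D2:**
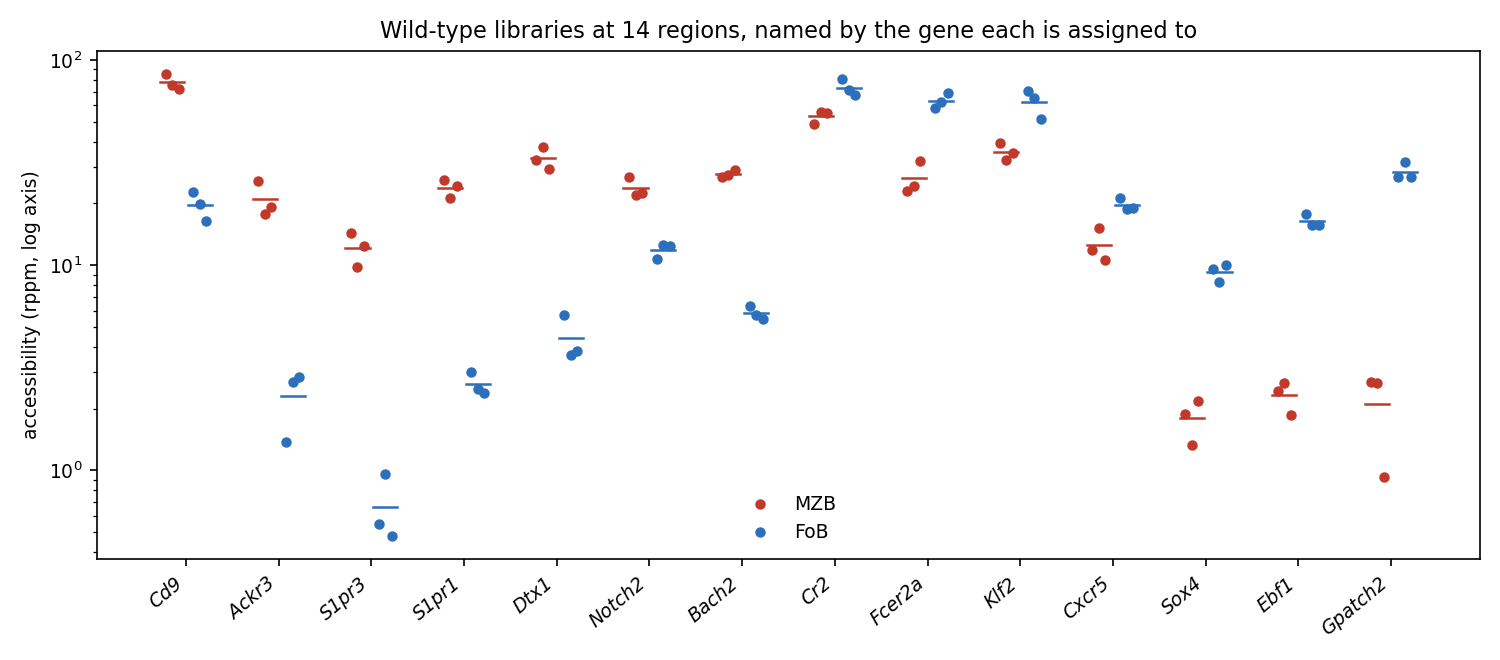
Accessibility (rppm, log axis) in each wild-type library at 14 named regions, labelled with the gene each region is assigned to; points are libraries and bars the means of the 3 MZB (red) and 3 FoB (blue) libraries. The first 7 regions are higher in MZB and the last 7 lower, and the groups overlap at none of the 14. Each was picked for the smallest p or the largest called difference of its gene in these libraries, which favours regions without overlap.

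The 11 genes of the follicular programme, also chosen with earlier results known, had mostly lower calls. Of their 162 regions, 6 (3.70%) were higher and 54 (33.3%) lower in MZB, and 20 were lower by at least 2-fold. The median difference was -0.35, which is 0.53 below that of all regions. Quantile normalisation gave 3 higher and 84 lower, and leaving out FoB replicate 3 gave 3 higher. For 8 genes every called region was lower, for Gpr183 every called region was higher, and Ccr7 and Satb1 had both.

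Klf2, a transcription factor of recirculating lymphocytes, had its start site (chr8:72318657-72319492) at 39.4, 32.4 and 35.1 rppm in the MZB libraries and 70.9, 65.2 and 51.6 rppm in the FoB libraries, without overlap (log2 difference -0.79, SE 0.11, adjusted p = 4.29e-07). Cxcr5, the receptor for the follicular chemokine CXCL13, passed at 1 of 12 regions, inside the gene (chr9:44515477-44515897), at 11.9, 15.2 and 10.6 rppm in the MZB libraries and 21.4, 18.7 and 19.1 rppm in the FoB libraries (log2 difference -0.65, SE 0.16, adjusted p = 0.00136). Ccr7, which guides cells to T cell zones, had 6 of 15 regions lower and 1 higher.

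Btla, an inhibitory receptor, had 6 of 18 regions lower, and its leading region showed 1.95 ± 0.649 rppm in MZB and 9.27 ± 0.989 rppm in FoB (log2 difference -2.02, adjusted p = 3.23e-08). Satb1, a chromatin organiser, had 16 of 48 lower and 1 higher, and Cd55, a complement regulator, 5 of 9 lower. Gpr183, the oxysterol receptor that positions B cells at follicle edges, had 4 of 6 regions higher. The leading Gpr183 region showed 8.68 ± 0.900 rppm in MZB and 5.01 ± 1.45 rppm in FoB (log2 difference 0.77, adjusted p = 0.00748), and this call was lost under quantile normalisation, TMM scaling and DESeq2 and without FoB replicate 1.

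Notch signalling is transmitted by receptors cleaved on contact with ligands, whose intracellular part joins the DNA-binding factor RBPJ and coactivators of the Mastermind family. Of the 334 regions of 35 Notch pathway genes, 95 (28.4%) were higher and 38 (11.4%) lower in MZB, with a median of 0.20, which is 0.02 above that of all regions. Under TMM scaling 71 were higher and 64 lower, and under quantile normalisation 60 and 62. For 12 genes every called region was higher, for 6 every called region was lower, 11 had both, and 6 had none.

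Among the receptors, Notch2 had 8 of 18 regions higher and 1 lower. The leading Notch2 region (chr3:98046288-98046766), inside the gene, stood at 26.99, 22.1 and 22.4 rppm in the MZB libraries and 10.7, 12.5 and 12.4 rppm in the FoB libraries (log2 difference 0.97, SE 0.15, adjusted p = 3.53e-06). Its start site (chr3:98013144-98013881) was the lower one, at 23.5, 27.6 and 21.5 rppm in the MZB libraries and 33.7, 29.7 and 33.9 rppm in the FoB libraries (log2 difference -0.42, adjusted p = 0.00779). Notch1 had 1 of 4 regions higher.

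Dtx1, a Deltex ubiquitin ligase and Notch target, had 6 of 12 regions higher and none lower. Inside the gene and 28.1 kb downstream of its start, one region (chr5:120683245-120683829) stood at 32.7, 37.5 and 29.5 rppm in the MZB libraries and 5.75, 3.66 and 3.82 rppm in the FoB libraries, with no overlap (log2 difference 2.80, SE 0.18, adjusted p = 5.84e-15). At the Dtx1 start site the difference was smaller, at 22.4, 20.7 and 19.6 rppm in the MZB libraries and 15.6, 16.7 and 13.6 rppm in the FoB libraries (log2 difference 0.44, adjusted p = 0.0154).

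Rbpj had 11 of 17 regions higher, and the leading one showed 5.33 ± 0.497 rppm in MZB and 0.962 ± 0.339 rppm in FoB (log2 difference 2.02, adjusted p = 8.17e-06). The coactivator gene Maml2 had 16 of 48 regions higher and 6 lower. Maml2 held regions of opposite direction within the gene, at 17.8 ± 1.79 rppm in MZB and 2.08 ± 0.269 rppm in FoB (log2 difference 2.83, adjusted p = 1.50e-12) and at 5.02 ± 1.04 rppm in MZB and 15.1 ± 2.59 rppm in FoB (log2 difference -1.50, adjusted p = 1.44e-07). Lfng, a glycosyltransferase that modifies Notch receptors, had 4 of 6 regions lower, with 12.3 ± 0.151 rppm in MZB and 32.8 ± 3.85 rppm in FoB at the leading one (log2 difference -1.38, adjusted p = 3.15e-10). The target gene Hes1 had 4 of 27 higher and 8 lower, and the feedback inhibitor Nrarp 4 of 10 higher. Of the ligand genes, Dll1 had 2 of 4 lower, Jag2 3 of 4 higher and Jag1 2 of 5 higher.

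**Figure D3:**
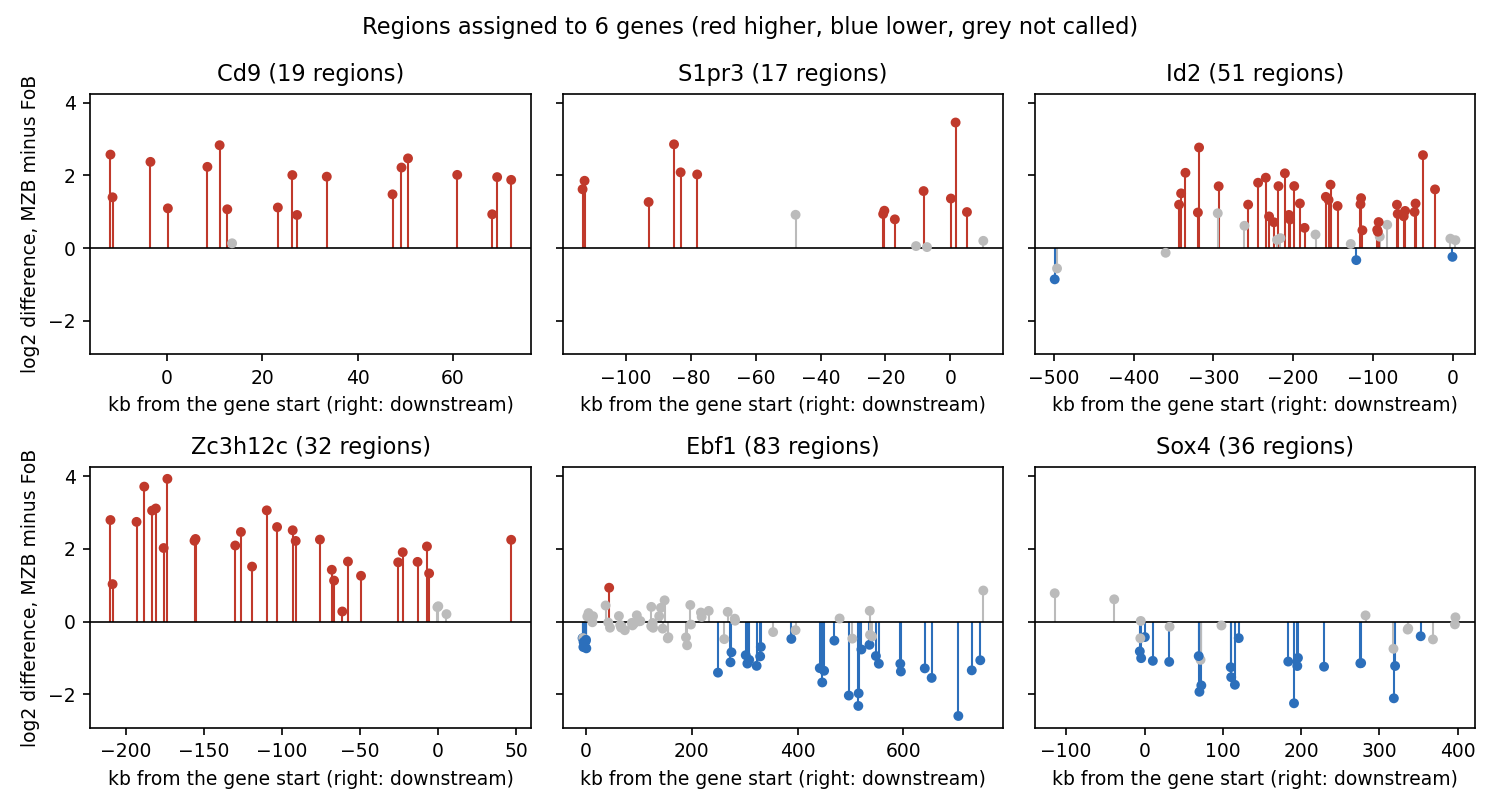
The log2 difference (MZB minus FoB, wild-type) of every tested region assigned to 6 genes, against the distance of its middle from the nearest listed start of that gene in kb (downstream to the right). Red regions were called higher in MZB, blue lower and grey neither; Cd9, S1pr3 and Zc3h12c hold no lower call, Sox4 no higher call and Ebf1 a single one.

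Genes of migration and adhesion had 122 of 406 regions (30.0%) higher and 65 (16.0%) lower. Their median lay 0.06 below that of all regions. Itgb1, the beta chain of several integrins, had 17 of 20 regions higher and Rgs10, a regulator of G protein signalling, 11 of 13, with none lower for either. Rgs1 had 8 of 17 higher. In the other direction Gnai2, the G protein subunit that relays chemokine signals, had 6 of 7 regions lower and Rac2 4 of 7. Cxcr4, the receptor for CXCL12, had 8 of 44 higher and 6 lower. A region 286662 bp from Cxcr4 (chr1:128878961-128879436) stood at 20.2, 27.9 and 21.8 rppm in the MZB libraries and 0, 0.867 and 0.716 rppm in the FoB libraries, so that 1 FoB library held no read there (log2 difference 4.65, SE 0.31, adjusted p = 2.50e-14). S1pr2, the sphingosine receptor of germinal centre cells, had 2 of 3 higher, with 11.8 ± 2.03 rppm in MZB and 1.30 ± 0.560 rppm in FoB at the leading region (log2 difference 2.81, adjusted p = 4.97e-10).

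The noncanonical NF-kB pathway carries signals from the BAFF receptor and CD40 through the kinase NIK to NFKB2 and RELB. Of 58 regions of 10 genes, 3 (5.17%) were higher and 14 (24.1%) lower in MZB, and the median was 0.35 below that of all regions. The count of lower regions was 9 without FoB replicate 1 and 9 without FoB replicate 2. Tnfrsf13c, which encodes the BAFF receptor, had 3 of 4 regions lower. Map3k14, which encodes NIK, had 1 of 10 regions lower and none higher, and a median difference of 0.16 beside 0.18 for all regions. Its lower region stood at 41.8, 32.2 and 37.01 rppm in the MZB libraries and 70.1, 55.5 and 58.02 rppm in the FoB libraries, without overlap (log2 difference -0.72, SE 0.11, adjusted p = 3.88e-06). Cd40 showed 14.9 ± 1.40 rppm in MZB and 21.02 ± 1.48 rppm in FoB (log2 difference -0.49, adjusted p = 0.00489), and Nfkb2 had 2 of 3 regions lower. Relb held a higher region, at 23.4 ± 3.27 rppm in MZB and 12.5 ± 2.41 rppm in FoB (log2 difference 0.89, adjusted p = 2.09e-05), and a lower one.

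Canonical NF-kB genes had 44 of 205 regions (21.5%) higher and 33 (16.1%) lower. This balance turned with the scaling, to 35 higher and 68 lower under TMM and 27 and 41 under quantile normalisation. Tnfaip3, the A20 feedback inhibitor, had 11 of 33 higher and 1 lower, and Nfkbiz 9 of 31 higher and 2 lower. Ikbkb, a kinase of the pathway, had 4 of 10 lower, with 0.923 ± 0.380 rppm in MZB and 7.05 ± 0.436 rppm in FoB at a region 5884 bp from the gene (log2 difference -2.44, adjusted p = 1.24e-08). B cell receptor signalling genes had 81 of 389 regions (20.8%) higher and 50 (12.9%) lower, but 67 and 95 under TMM and 44 and 74 under quantile normalisation. Syk, the kinase next to the receptor, led the higher regions at 25.9, 31.1 and 28.3 rppm in the MZB libraries and 3.83, 2.99 and 3.58 rppm in the FoB libraries (log2 difference 2.87, SE 0.19, adjusted p = 2.37e-14). Fyn had 19 of 35 higher and 3 lower, while Vav1 had 7 of 15 and Ptpn6, an inhibitory phosphatase, 4 of 5 lower with none higher. Prkcb held regions of both kinds, at 10.8 against 2.12 rppm (log2 difference 2.14, adjusted p = 1.02e-07) and at 13.7 against 39.7 rppm (log2 difference -1.50, adjusted p = 1.44e-11) in MZB against FoB.

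Toll-like receptor genes had 42 of 192 regions (21.9%) higher and 20 (10.4%) lower, near the 24.2% and 11.4% of all regions. Without FoB replicate 2, 12 were lower. Under TMM 32 were higher and 45 lower, and under quantile normalisation 29 and 37. Their median lay 0.06 below that of all regions, a direction that turned under quantile normalisation (0.02 above). Tlr3, a receptor for double-stranded RNA, had 5 of 7 regions higher and Tlr5, for flagellin, 4 of 5. Cd180, a relative of TLR4 on B cells, had 8 of 19 higher, with 9.70 ± 2.56 rppm in MZB and 1.80 ± 0.411 rppm in FoB at the leading region (log2 difference 2.13, adjusted p = 4.86e-07). The adaptor gene Tirap showed 14.4 ± 0.389 rppm in MZB and 3.83 ± 1.19 rppm in FoB (log2 difference 1.82, adjusted p = 3.02e-08). None of the 8 regions of Tlr2, the 2 of Tlr9 or the 3 of Tlr6 passed.

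The 31 B lineage transcription factor genes held 1292 regions, of which 202 (15.6%) were higher and 235 (18.2%) lower in MZB. The median lay 0.19 below that of all regions. Ebf1, an early factor of the B lineage, had 34 of 83 regions lower and 1 higher. Its leading region (chr11:45323674-45324413), 703.8 kb downstream of the start and beyond the gene's end, stood at 2.43, 2.66 and 1.87 rppm in the MZB libraries and 17.8, 15.6 and 15.8 rppm in the FoB libraries (log2 difference -2.59, SE 0.24, adjusted p = 8.27e-11). The plot of loci shows most lower Ebf1 regions far downstream of the start. Sox4 had 22 of 36 lower and none higher, and its leading region showed 1.89, 1.33 and 2.18 rppm in the MZB libraries and 9.58, 8.29 and 10.03 rppm in the FoB libraries (log2 difference -2.11, SE 0.25, adjusted p = 2.56e-08). The 4 factors Mef2c (43 of 115 lower, 4 higher), Bcl11a (27 of 93 lower, 2 higher), Lef1 (12 of 23 lower) and Fli1 (5 of 30 lower, 1 higher) had mostly lower calls. The start-site region of Lef1, whose sequence is shown above, averaged 15.04 rppm in MZB and 31.9 rppm in FoB (log2 difference -1.07, adjusted p = 1.72e-07).

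Other factors had more higher than lower calls, where 24.2% of all regions were higher and 11.4% lower. Zeb2, a zinc-finger repressor, had 36 of 91 regions higher and 7 lower, and Foxp1 23 of 131 higher and 3 lower. Bach2, which restrains plasma cell differentiation, had 26 of 87 higher and 6 lower. Its leading region (chr4:32405960-32406450), inside the gene, stood at 26.99, 27.6 and 29.2 rppm in the MZB libraries and 6.30, 5.69 and 5.49 rppm in the FoB libraries, a narrow spread in both groups (log2 difference 2.17, SE 0.16, adjusted p = 2.41e-13). Runx3 had 7 of 22 and Myb 7 of 23 higher. Myc, a regulator of growth, had 21 of 90 higher and 14 lower. The median differences of Foxp1 (0.11) and Myc (0.05) lay below the 0.18 of all regions.

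Id2, an inhibitor of E proteins, had 36 of 51 regions higher and 3 lower, and a region at -317.8 kb from its start showed 7.29, 4.79 and 4.67 rppm in the MZB libraries and 0.274, 0.675 and 0.239 rppm in the FoB libraries (log2 difference 2.77, SE 0.35, adjusted p = 6.08e-08). Tcf4, an E protein gene, had 10 of 68 higher and 10 lower. The region of smallest p in Tcf4 was lower, at 4.32, 5.32 and 3.11 rppm in the MZB libraries and 13.96, 18.99 and 16.0 rppm in the FoB libraries (log2 difference -1.84, SE 0.18, adjusted p = 4.27e-10), and the most strongly higher one stood at 9.99, 9.04 and 7.46 rppm in the MZB libraries and 0.821, 3.66 and 3.34 rppm in the FoB libraries (log2 difference 1.75, adjusted p = 1.50e-05). The list of E and Id genes had 49 of 170 regions higher and 18 lower, the latter 10 without MZB replicate 1. Its median was 0.005 above that of all regions and fell below it under both other scalings.

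Krueppel-like factor genes had 39 of 168 regions higher and 27 lower, and 36 and 44 under TMM scaling. Klf4 had 13 of 42 higher and Klf10 10 of 13 higher with 2 lower, while Klf3 had 5 of 11 and Klf13 11 of 33 lower. At Klf10 the leading region showed 7.87 ± 1.29 rppm in MZB and 0.822 ± 0.238 rppm in FoB (log2 difference 2.67, adjusted p = 1.77e-08), and at Klf3 13.6 ± 1.30 rppm in MZB and 34.01 ± 2.90 rppm in FoB (log2 difference -1.29, adjusted p = 1.35e-09). AP-1 genes had 23 of 110 regions higher and 19 lower, but 18 and 30 under TMM and 19 and 22 under quantile normalisation. Batf3 had 7 of 9 and Fosl2 4 of 4 regions higher, whereas Junb had 3 of 4 and Jund 3 of 5 lower. Batf3 led with 11.2 ± 2.06 rppm in MZB and 1.28 ± 0.429 rppm in FoB (log2 difference 2.74, adjusted p = 6.56e-10), and a gene-body region of Junb showed 17.99 ± 1.77 rppm in MZB and 29.8 ± 2.67 rppm in FoB (log2 difference -0.71, adjusted p = 3.04e-05). Of the immediate-early Egr and Nr4a genes, Egr1 had 4 of 7 regions lower and Egr2 5 of 9 higher with 2 lower. Nr4a3 held both, with 36.8 ± 3.18 rppm in MZB and 1.51 ± 0.618 rppm in FoB at a region 225646 bp from the gene (log2 difference 4.26, adjusted p = 1.83e-17) and 71.2 ± 7.63 rppm in MZB and 107 ± 5.88 rppm in FoB at one 1376 bp from it (log2 difference -0.59, adjusted p = 1.00e-06).

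**Figure D4:**
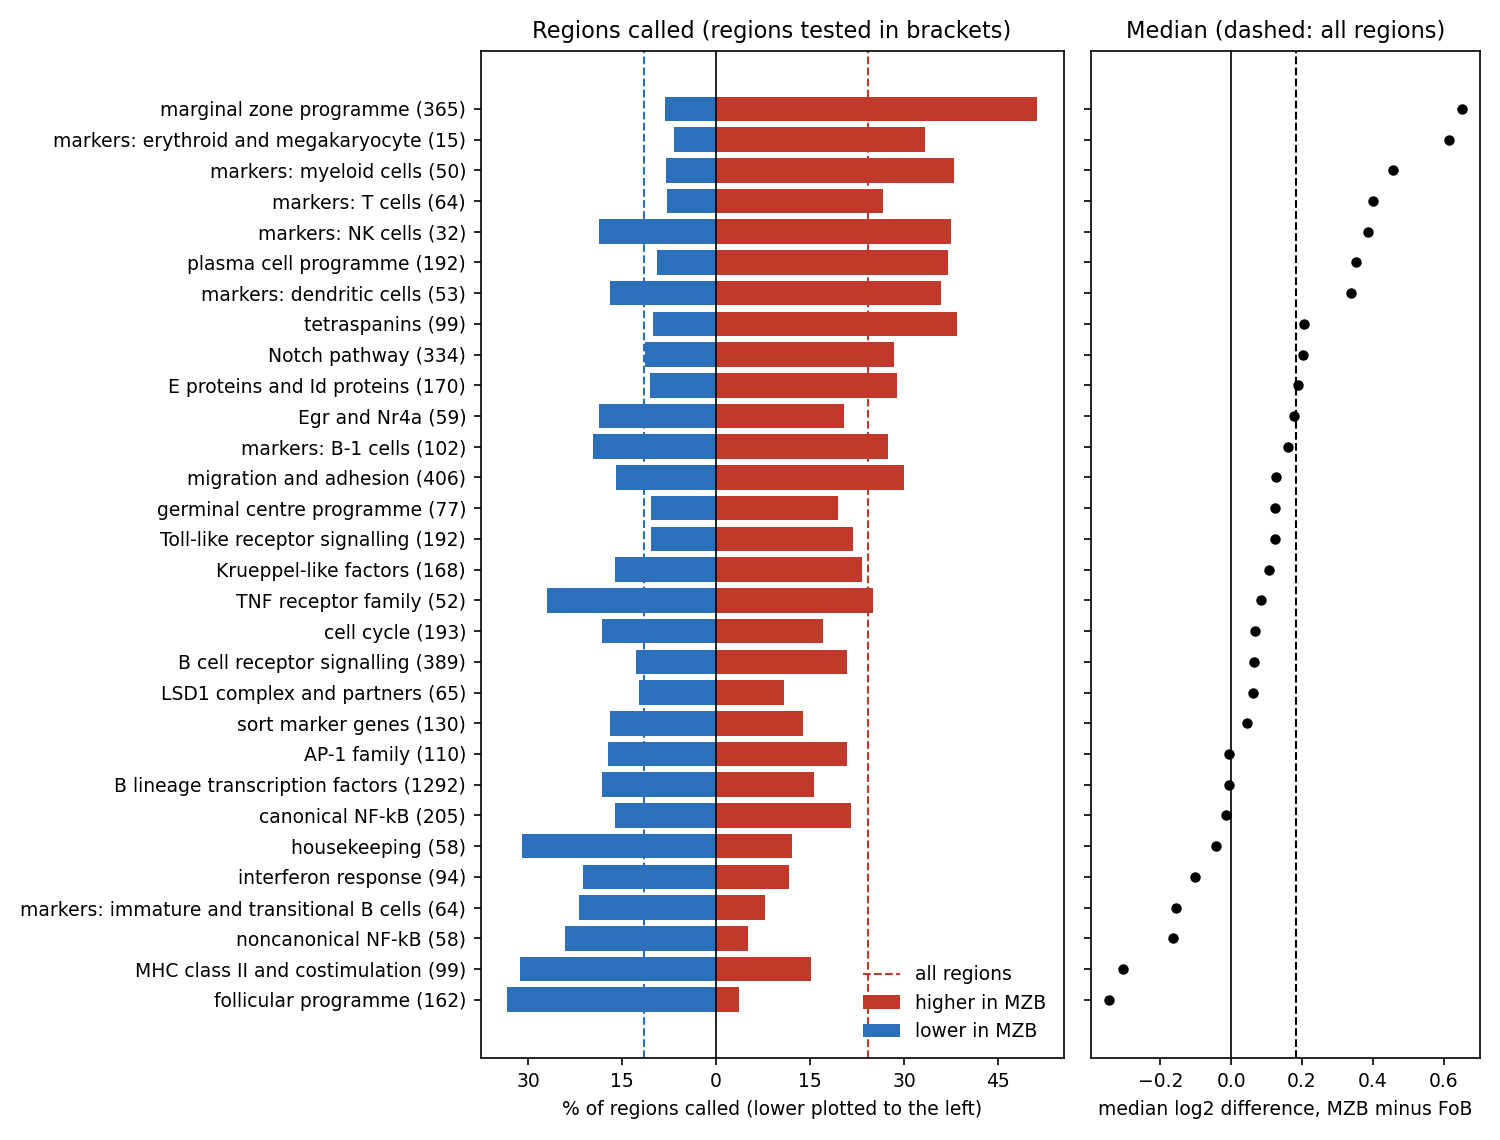
Left: for each of 30 gene lists, ordered by median, the percent of its tested regions called higher (red) or lower (blue, to the left) in MZB, with the shares over all regions as dashed lines. Right: the median log2 difference of each list (points) and of all regions (dashed, 0.18), from 0.65 for the marginal zone programme to -0.35 for the follicular programme. The lists were chosen with earlier results of these data known.

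Relative to the median of all regions, the medians were 0.20 lower for canonical NF-kB, 0.12 lower for B cell receptor signalling, 0.08 lower for Krueppel-like factors, 0.19 lower for AP-1, 0.06 lower for the germinal centre list, 0.10 lower for the TNF receptor family, 0.12 lower for LSD1 and partners, 0.29 lower for interferon response, 0.12 lower for cell cycle and 0.23 lower for housekeeping genes. Those of Egr and Nr4a genes (-0.01), tetraspanins (0.02) and B-1 markers (-0.02) changed side with the scaling. The other marker medians were 0.22 higher for T cells, 0.27 for myeloid cells, 0.20 for NK cells and 0.16 for dendritic cells. That of the erythroid list was 0.43 higher, and that of immature B cells 0.34 lower. Under quantile normalisation they were, in this order, 0.12, 0.06, 0.21, 0.07 and 0.20 higher and 0.30 lower. The myeloid and erythroid lists were low, with medians of 3.22 and 2.52 rppm in MZB beside 4.82 rppm for all regions.

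The plasma cell programme had 71 of 192 regions (37.0%) higher and 18 (9.38%) lower, and its median lay 0.17 above that of all regions. Zbtb20 had 26 of 54 higher and 1 lower, and Ell2, an elongation factor of antibody-secreting cells, 11 of 14 higher. Ell2 showed 13.2, 12.5 and 12.1 rppm in the MZB libraries and 1.64, 1.64 and 0.239 rppm in the FoB libraries at a region 163219 bp from the gene (log2 difference 3.13, SE 0.29, adjusted p = 1.29e-10). Prdm1, which encodes the plasma cell regulator BLIMP-1, had 13 of 39 higher and 6 lower. The strongest higher Prdm1 region averaged 14.2 ± 1.53 rppm in MZB and 2.65 ± 0.634 rppm in FoB (log2 difference 2.23, adjusted p = 4.92e-09) and the strongest lower one 14.6 ± 2.45 rppm in MZB and 27.5 ± 3.90 rppm in FoB (log2 difference -0.90, adjusted p = 1.31e-05). Both lay outside the gene, 82900 and 101647 bp from it. The germinal centre list had 15 of 77 higher and 8 lower, the latter 4 without MZB replicate 1, FoB replicate 1 or FoB replicate 2. It had 12 higher and 13 lower under TMM, and 9 and 14 under quantile normalisation.

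The genes of MHC class II presentation and costimulation had 15 of 99 regions (15.2%) higher and 31 (31.3%) lower, and a median 0.49 below that of all regions. The MHC class II genes H2-Aa, H2-Ab1 and H2-Eb1 had 4 of 8, 4 of 6 and 4 of 7 regions lower, with none higher. H2-Ab1 showed 28.9, 27.1 and 30.2 rppm in the MZB libraries and 47.1, 47.9 and 49.2 rppm in the FoB libraries at its leading region (log2 difference -0.73, SE 0.11, adjusted p = 1.80e-06). All higher calls of the list but 3 belonged to the costimulatory genes Cd80 (4 of 6 regions) and Cd86 (8 of 19). Cd86 stood at 19.4, 19.9 and 19.9 rppm in the MZB libraries and 1.92, 4.92 and 2.39 rppm in the FoB libraries inside the gene (log2 difference 2.59, SE 0.24, adjusted p = 8.71e-11). Of the 3 others 2 were at H2-Oa and 1 at Ciita. Tetraspanin genes had 38 of 99 regions higher, 18 of them at Cd9, and 10 lower, which became 6 without FoB replicate 2. The TNF receptor family had 13 of 52 higher and 14 lower, with Tnfrsf1a at 13.8 ± 0.926 rppm in MZB and 2.14 ± 1.08 rppm in FoB (log2 difference 2.51, adjusted p = 4.00e-10).

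The genes of LSD1 and its partners had 7 of 65 regions higher and 8 lower, which became 4 and 5 without MZB replicate 3, and the single region of Kdm1a, which encodes LSD1, did not pass. Interferon response genes had 11 of 94 regions higher and 20 lower. The higher count was 6 without FoB replicate 1 and the lower count 12 without FoB replicate 3. Irf2, a repressor in this pathway, held 11 of the lower regions. Cell cycle genes had 33 of 193 higher and 35 lower, and 23 lower without MZB replicate 2. Ccnd1 had 5 of 8 higher, with 9.80 ± 2.88 rppm in MZB and 2.64 ± 1.06 rppm in FoB (log2 difference 1.72, adjusted p = 1.37e-06), and 13 of the 27 cell cycle genes had lower calls only. Housekeeping genes had 7 of 58 regions higher and 18 (31.0%) lower.

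Markers of other cell types were examined as a list each. Myeloid markers had 19 of 50 regions (38.0%) higher and 4 lower, the latter 2 without MZB replicate 3. Their summed accessibility was 345 to 352 rppm in the MZB libraries and 267 to 275 rppm in the FoB libraries. Mpo, Elane, S100a8 and Vsig4 had no tested region, and Cd14, Ly6g and S100a9 had no call. Adgre1 held 3 of the 4 lower calls among its 11 regions and no higher call. Marco, a scavenger receptor of marginal zone macrophages, had 7 of 8 regions higher, led by 28.1, 30.3 and 23.3 rppm in the MZB libraries and 6.84, 3.66 and 3.82 rppm in the FoB libraries (log2 difference 2.44, SE 0.21, adjusted p = 1.76e-11). Lyz2 had a single region, 2314 bp outside the gene, of 9.57 against 2.40 rppm (log2 difference 1.80, adjusted p = 1.22e-06). T cell markers had 17 of 64 regions (26.6%) higher and 5 (7.81%) lower, beside 24.2% and 11.4% of all regions. Their sums were 420.0 to 428 rppm in the MZB libraries and 347 to 366 rppm in the FoB libraries. Cd3g, Cd4, Cd8a and Bcl11b had no tested region and no region of Cd3d or Cd3e passed. Cd8b1 had 2 of 2 regions higher, Icos 3 of 8 and Gata3 4 of 13. Cd247 had 2 of 9 regions higher and 3 lower. Of the T cell genes with a tested region, 4 had higher calls only, 3 had both kinds and 3 had no call. NK cell markers had 12 of 32 higher and 6 lower, the latter 3 without MZB replicate 3, FoB replicate 2 or FoB replicate 3, with sums of 379 to 387 and 383 to 429 rppm. Their 4 Prf1 regions were all higher, one at 9.91 ± 1.63 rppm in MZB and 2.41 ± 0.417 rppm in FoB (log2 difference 1.84, adjusted p = 1.39e-07), whereas Klrb1c, which encodes the receptor NK1.1, had 2 of 14 regions higher and 5 of the 6 lower calls of the list. The part of other cells in these sorted populations was not tested.

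Dendritic cell markers had 19 of 53 higher and 9 lower, with sums of 404 to 438 and 360.0 to 390.4 rppm. All 4 Ccr9 regions were lower, while Siglech had 9 of 14 higher and none lower. Erythroid and megakaryocyte markers had 5 of 15 higher and 1 lower (1 and 1 under quantile normalisation), with sums of 71.5 to 73.4 and 64.2 to 68.5 rppm. No region was tested at Gata1, Hba-a1 or Gp9. Immature and transitional B cell markers had 5 of 64 higher and 14 lower, with sums of 464 to 486 and 553 to 590 rppm. The higher count was 3 without FoB replicate 2 or 3 and the lower count 9 without FoB replicate 1. B-1 cell markers had 28 of 102 higher and 20 lower (18 and 21 under quantile normalisation), with sums of 1203 to 1213 and 1163 to 1246 rppm.

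Among regions of at least 5 rppm in the higher group and within 100000 bp of a gene, those with the largest differences included one in Map1b, a microtubule-associated protein gene, with 29.4, 31.6 and 31.7 rppm in the MZB libraries and 0.548, 0.482 and 0.477 rppm in the FoB libraries (log2 difference 4.97, SE 0.28, adjusted p = 4.29e-16). Next came regions assigned to Prkdc (28.6 against 0.608 rppm in MZB against FoB), Fam149a (25.96 against 0.475 rppm), Drd5 (24.3 against 0.694 rppm), Clvs1 (18.3 against 0.470 rppm), Myo3b (log2 difference 4.24), Lama3 (30.1 against 1.19 rppm) and Saa2 (11.2 against 0.129 rppm). At Slc22a3 the 3 FoB libraries held 1 read in all, and the MZB values were 7.83, 13.03 and 11.5 rppm. The groups did not overlap at any of these regions, by the way they were chosen.

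In the other direction, a region in Gpatch2 (chr1:187369041-187369416), a G-patch protein gene, stood at 2.70, 2.66 and 0.933 rppm in the MZB libraries and 26.8, 31.7 and 26.98 rppm in the FoB libraries (log2 difference -3.57, SE 0.23, adjusted p = 1.07e-14). Serp2 followed at 4.05, 3.46 and 2.18 rppm in the MZB libraries and 35.6, 42.3 and 41.1 rppm in the FoB libraries (log2 difference -3.46, SE 0.17, adjusted p = 1.83e-17). Tnfrsf8, which encodes the activation receptor CD30, showed 1.68 ± 0.183 rppm in MZB and 19.4 ± 1.43 rppm in FoB (log2 difference -3.19, adjusted p = 3.22e-14), and a region 55378 bp from Ifng, the interferon-gamma gene, 4.54 ± 0.912 rppm in MZB and 31.4 ± 2.82 rppm in FoB (log2 difference -2.67, adjusted p = 5.95e-15). Sgk1, a kinase gene, showed 1.94 against 14.2 rppm, Esrrg 1.01 against 11.9 rppm, Nsmce1 1.13 against 10.2 rppm, Sdk2 1.95 against 14.03 rppm and Pgpep1l 2.62 against 17.9 rppm in MZB against FoB. At Tent5a the 3 MZB libraries held 2 reads in all, and the FoB values were 5.48, 6.07 and 5.25 rppm.

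Counted by gene, at least 2-fold higher regions were frequent at Tenm4 (40 of 83), Atxn1 (38 of 61), Pcdh9 (32 of 78) and Gm5861 (31 of 39). Lower regions of this size were most frequent at Ebf1 (19 of 83), Rpia (19 of 142), Sox4 (16 of 36), Antxr2 (15 of 34) and Gpatch2 (14 of 17). Rpia lies beside the immunoglobulin kappa locus, whose gene segments are not annotated as protein-coding genes.

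Start sites with a change of at least 2-fold were few. Of 21262 listed start sites 10702 overlapped a tested region within the listed window, and 382 of these were higher and 51 lower in MZB by at least 2-fold. Il4, which encodes the cytokine interleukin-4, stood at 13.5, 16.5 and 16.2 rppm in the MZB libraries and 0.821, 2.12 and 0.716 rppm in the FoB libraries (log2 difference 3.29, SE 0.26, adjusted p = 2.71e-12). Drd5, a dopamine receptor gene, stood at 18.1, 17.8 and 14.3 rppm in the MZB libraries and 0.274, 0.867 and 0.955 rppm in the FoB libraries at its start (log2 difference 3.89, SE 0.30, adjusted p = 1.14e-12). Both start sites were at or below 2.12 rppm in every FoB library. In the other direction Lmna, which encodes nuclear lamins A and C, showed 6.48, 4.79 and 6.22 rppm in the MZB libraries and 16.7, 18.6 and 19.6 rppm in the FoB libraries (log2 difference -1.58, SE 0.17, adjusted p = 1.89e-09). Nab2, a corepressor of Egr factors, showed 18.9 ± 1.53 rppm in MZB and 48.6 ± 3.70 rppm in FoB (log2 difference -1.34, adjusted p = 8.77e-11), and Ngfr, the nerve growth factor receptor gene, 9.19 ± 0.716 rppm in MZB and 26.04 ± 4.69 rppm in FoB (log2 difference -1.44, adjusted p = 6.09e-09). These 5, and the start-site regions of Ackr3, S1pr3, Notch2, Dtx1 and Lef1 given above, were chosen after their values were seen.

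The 250 bases upstream of these starts differed in composition. The median ratio of observed to expected CpG was 0.758 over start sites with a tested region, 0.561 over those at least 2-fold higher and 0.375 over those at least 2-fold lower. The motifs searched on both strands were GTGGGAA for RBPJ, TGANTCA for AP-1, CAGGTG and CAGCTG as E boxes, GAGGAAG and CCGGAAG for Ets factors, GGGNGTGG for Krueppel-like factors, ATGCAAAT for the octamer, TGTGGT for Runx and TCAAAG for Tcf/Lef. Among start sites with a tested region, 15.6% held CCGGAAG, against 15 of 382 (3.93%) of the 2-fold higher and 4 of 51 (7.84%) of the 2-fold lower ones. CAGGTG was in 14.99% of the windows with a tested region, in 73 (19.1%) of the 2-fold higher and in 16 (31.4%) of the 2-fold lower ones. CAGCTG gave 10.9%, 16.0% and 23.5%, and the RBPJ letters 4.97%, 7.07% and 3.92%. In the same order, GAGGAAG gave 10.5%, 13.9% and 15.7%, AP-1 3.59%, 6.81% and 5.88%, and Runx 10.3%, 14.1% and 21.6%. Krueppel-like letters gave 21.2%, 20.2% and 33.3%, the octamer 1.43%, 2.88% and 0%, and Tcf/Lef 9.5%, 7.07% and 13.7%. Composition also differed between these sets of start sites, and its part in the motif shares was not tested.

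The LSD1 knockout libraries gave a second comparison of the 2 cell types, whose means share no library with the wild-type one. Both comparisons came from 1 limma fit of the 4 groups. Their tests therefore share its estimate of the spread, and the calls are not independent. There 23.2% of regions were higher in MZB and 9.47% lower. Of the 21757 regions higher in wild-type MZB, 21254 (97.7%) had the same direction in the knockout, 15797 (72.6%) also passed there, and 6 passed in the opposite direction. Of the 10269 lower ones, 9934 (96.7%) had the same direction, 6158 (60.0%) passed and 9 passed in the opposite one. Among all tested regions, called or not, 78.5% had the same direction in both genotypes. In 32.0% the knockout difference also passed in that direction. Over the 89782 regions the 2 log2 differences had a Pearson correlation of 0.81, given as a description since regions of a library are not independent.

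Values in the knockout follow for 4 of these regions. The Cd9 region inside the gene stood at 70.2, 79.5 and 73.6 rppm in the knockout MZB libraries and 20.5, 24.7 and 19.3 rppm in the knockout FoB libraries (log2 difference 1.77, adjusted p = 2.24e-14). For Dtx1 the values were 27.5, 32.8 and 32.5 rppm in the knockout MZB libraries and 4.14, 6.18 and 5.34 rppm in the knockout FoB libraries (2.47, adjusted p = 1.44e-13). At the Fcer2a start site they were 34.05, 31.6 and 28.4 rppm in the knockout MZB libraries and 66.01, 65.3 and 66.1 rppm in the knockout FoB libraries (-1.06, adjusted p = 2.25e-09). All 3 regions separated the cell types without overlap in both genotypes. For Marco the values were 9.33, 12.9 and 13.6 rppm in the knockout MZB libraries and 3.31, 3.91 and 2.80 rppm in the knockout FoB libraries (1.69, adjusted p = 6.92e-08). A test of the difference of the differences called 1 region of 89782 (0.00111%), in Ccdc93, and none of the regions named above.

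**Figure D5:**
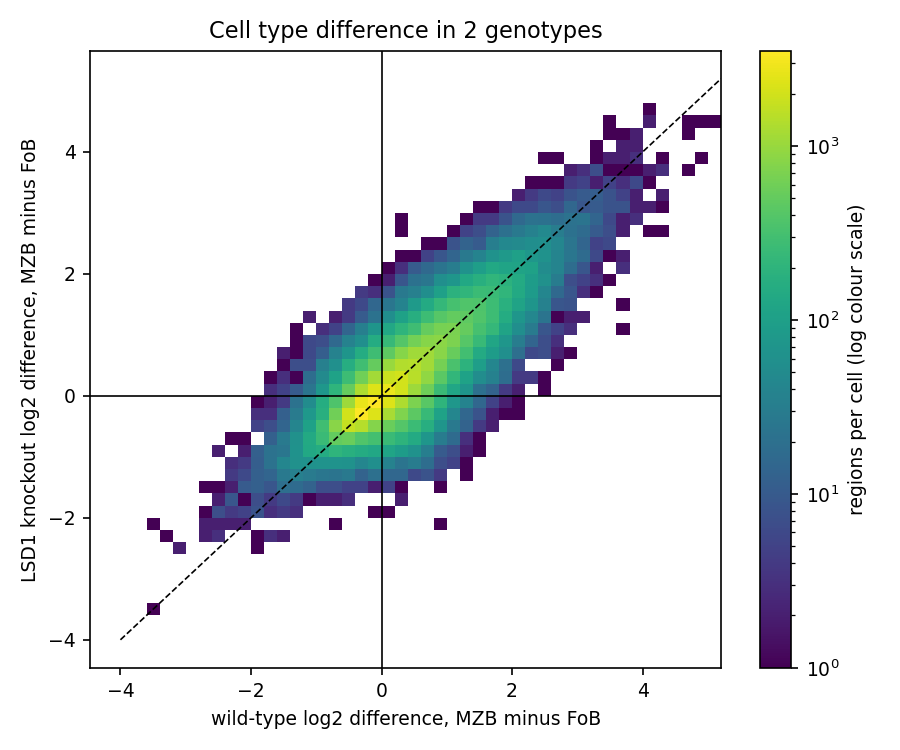
The log2 difference between MZB and FoB in the LSD1 knockout against that in wild-type, as the number of the 89782 regions per cell of the grid; the dashed line marks equal values. The 2 differences had a Pearson correlation of 0.81 over regions.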

How the data were processed

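The deposited values are RPM values, scaled by the authors to reads in peaks (rppm), in 1 table of 12 libraries over regions on build mm10; Bowtie 1.1.1, MACS2 and mm10 are named in the submitters' processing notes, with no further settings in the sources used here. Peak calling per library or on pooled libraries, any shift for the Tn5 cut and whether starts count from 0 or 1 are likewise not given. Each value was a whole multiple of the worth of 1 read in 100% of cases (tolerance 0.01), so whole reads were recovered and edgeR 4.0.16 and DESeq2 1.42.0 were run on them as alternatives.

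Regions that reached 1 rppm in 3 or more libraries were tested on log2(rppm + 0.5) with limma 3.58.1 in R 4.3.3, in 1 fit of the 4 groups, with Benjamini-Hochberg adjustment over all 89782 regions. Where no tool is named, an adjusted p comes from limma. Each region was assigned to the overlapping or nearest protein-coding gene of RefSeq for GRCm38.p6, and 92 had none. A start site has a region within 1000 bp, and 79.9% of 21896 protein-coding genes have a listed start. Named regions were the 10 largest called differences per direction (at least 5 rppm in the higher group, within 100000 bp of a gene), for each list and direction the largest called region of each of 3 genes, the region of smallest p of each sort marker gene and of Notch2, S1pr1, S1pr3, Cd9, Klf2, Cxcr5, Dtx1, Bach2 and Tcf4, and in each direction the 5 genes with the most 2-fold regions. Members and lists were chosen with earlier results of these data known. Scripts were tested on simulated data. Some regions and genes that the rule names are not reported here.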

Additional observations from a re-analysis of the deposited data

Results flagged for a closer look

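One region had a cell type difference that differed between the genotypes. In Ccdc93 (chr1:121461682-121462971), accessibility was 85.3, 87.5 and 81.2 rppm in the MZB libraries and 78.3, 65.6 and 79.98 rppm in the FoB libraries in wild-type mice, a log2 difference of 0.18 that did not pass (0.141 after adjustment in limma). It was 67.9, 67.8 and 64.1 rppm in the knockout MZB libraries and 32.1, 36.5 and 28.2 rppm in the knockout FoB libraries, a log2 difference of 1.04 (adjusted p = 1.30e-10). The wild-type minus the knockout difference was -0.86 (SE 0.14), and the interaction test of limma gave an adjusted p = 0.0288. The FoB libraries of the knockout were the low ones, and the 3 other groups lay at 64.1 rppm or above.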

How the results depend on the processing

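Of the 187 named regions, 162 kept their direction and call under each of the 17 alternatives, 25 changed their call in at least 1 and none reversed; 23 of the 25 changed when 1 library was left out. Regions higher in MZB numbered 13196 with a filter of at least 5 rppm, 13509 with quantile normalisation and 13120 with DESeq2, and regions lower in MZB 17052 with edgeR and TMM scaling. Calls of at least 2-fold higher numbered 6557 with a pseudocount of 2, 6781 with the 5 rppm filter and 7972 with quantile normalisation. Those lower numbered 527, 804 and 4888 under the same settings and 2681 with edgeR and TMM. Start-site regions higher were 653 with DESeq2, and those lower 6305 with edgeR and TMM. The 5 rppm filter tests fewer regions and a larger pseudocount shrinks differences by construction; the cause of the other shifts was not tested.

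Leaving out 1 library gave 18466 to 19578 regions higher and 8263 to 8961 lower. The test of the difference between genotypes called 0 regions with a pseudocount of 0.1, 5 with a pseudocount of 2, 4 with quantile normalisation, 3 with robust variance shrinkage, 2 with edgeR and TMM, 2 with edgeR without TMM, and 0 to 3 when 1 library was left out. It called 3 without FoB replicate 2 and 0 without any one of the 5 other wild-type libraries. With a replicate block, 22304 regions were higher and 10659 lower, and no named region changed its call. Deviations of same-numbered MZB and FoB libraries correlated at -0.023, 0.0182 and -0.0177, and not every library correlated best with its own number, so the numbers were not taken to pair the libraries. A region near 1 rppm rests on a few reads per library, which limits what can be seen there.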

Other observations

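The 142 regions assigned to Rpia on chromosome 6 lay between 69155853 and 70814594, a span that holds 88 variable segments of the immunoglobulin kappa locus, and 7 were higher and 40 lower in MZB. Under quantile normalisation the counts were 1 and 56. Near-identical segments can share reads, and the sources used here do not say how such reads were placed.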
